A study of Mus musculus with 18 samples.

Results

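The genes described here are Hdac3 and 4 genes that encode stable partners of its protein in the NCoR/SMRT corepressor complex, namely Ncor1, Tbl1x, Tbl1xr1 and Gps2. They were taken as 5 listed symbols, matched to Ensembl identifiers on GRCm38, out of 49315 genes with deposited counts. The counts come from bone marrow-derived macrophages (BMDMs), which are macrophages grown from mouse marrow in culture, in 18 libraries that fall into 6 groups of 3 biological replicates. Libraries titled HDAC3 KO in the deposit, called here labelled HDAC3-/-, are by the study's methods from M-HDAC3-/- mice, in which exon 7 of Hdac3 is floxed and Cre is expressed from the Lyz2 (LysM) locus of myeloid cells, and control libraries are titled WT and named HDAC3f/f in those methods. BMDMs of each label received no other cells, or spent 45 min with K562 cells that were either non-apoptotic (NACs) or apoptotic (ACs), and were then washed and collected 5 h later. K562 is a human leukemia line, and the ACs had been exposed to UVB for 15 min before use. The study's methods give 3 animals per group, and the labels do not say whether the 3 treatments of 1 label share animals, so *p* values measure the spread between these libraries.

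HDAC3 is a class I histone deacetylase that removes acetyl groups from histones and needs a corepressor of the NCoR/SMRT family to become an active enzyme. NCOR1 is the large scaffold that docks on unliganded or repressive transcription factors and activates HDAC3. TBL1X and TBL1XR1 are related WD40-repeat proteins that hold the complex on chromatin and take part in exchanging corepressors for coactivators. GPS2 is a small subunit that bridges NCOR1 and TBL1X-type proteins and restrains inflammatory signalling in macrophages, where the complex is known for silencing inflammatory and lipid-handling genes.

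Total counts per library ranged from 4704491 to 26421267, and the library labelled HDAC3-/- untreated replicate 1 was the smallest. Macrophage markers were abundant in all 18 libraries, with Csf1r, the receptor for M-CSF, between 1170 and 6790 CPM (gene counts scaled to TMM-adjusted library totals). Of 8 granulocyte markers, Ngp reached 571 CPM and Ly6g at most 2.58 CPM. The 4 fibroblast markers summed to between 4.31 and 219 CPM. Genotype labels separated the libraries in GC dependence: the slope of log2 CPM on GC content, relative to the mean of all libraries, was -0.74, -0.68 and -0.39 per 10 percentage points in untreated control libraries and 0.18, 0.64 and 0.89 in untreated libraries labelled HDAC3-/-. With NACs the order was the opposite, with 0.43, -0.19 and 0.38 in control libraries and -0.51, -0.29 and -0.27 in libraries labelled HDAC3-/-, and with ACs the slopes of the labels overlapped.

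All 5 genes were detected in every library. Gps2, on the forward strand of chromosome 11 (69913888 to 69916591), was the most abundant per exon length, with a median of 39.5 CPM per kb. Hdac3 had a median of 8.19 CPM per kb, and Ncor1, Tbl1x and Tbl1xr1 followed with 4.68, 3.84 and 1.60 CPM per kb. The ranges of the last 4 genes overlapped across libraries, so that their order does not hold in each one, while the lowest Gps2 value of 23.2 CPM per kb lay above the highest of the other 4 genes, 18.5 CPM per kb for Hdac3. No stretch of 100 bases in the transcripts of any of the 5 genes was shared with a transcript of another gene, Tbl1x and Tbl1xr1 included.

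Hdac3 is the gene the study targeted (ENSMUSG00000024454, chromosome 18, 37935844 to 37954988, reverse strand). Untreated control libraries held 3.38, 44.4 and 31.9 CPM of Hdac3, and untreated libraries labelled HDAC3-/- held 38.7, 11.4 and 74.5 CPM. With NACs the control values were 48.7, 44.0 and 11.6 CPM and the values under the HDAC3-/- label 4.66, 34.0 and 42.6 CPM. With ACs they were 7.12, 38.3 and 29.7 CPM in control libraries and 39.7, 10.1 and 17.9 CPM in libraries labelled HDAC3-/-. The lowest of the 18 libraries was thus a control library and the highest one labelled HDAC3-/-, and the labels overlapped within each treatment. The floxed exon 7 (37944892 to 37945025, 134 bases) makes up 3.33% of the exon length of Hdac3. Gene counts can hold reads from the remaining exons of a transcript that lacks it, so they do not show directly whether the exon is lost. Its 134 bases are all coding and not a whole number of codons, so its loss would shift the reading frame. Whether that loss alters the amount of Hdac3 transcript was not tested.

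Hdac3 did not pass between labels in the quasi-likelihood test of edgeR, with *p* values adjusted by Benjamini-Hochberg over all genes tested. Its log2 fold change (HDAC3-/- label over control) was 0.49 untreated (SE 0.74, 95% interval -1.11 to 2.09, adjusted *p* = 0.645), -0.34 with NACs (SE 0.95, -2.80 to 2.12, adjusted *p* = 0.836) and -0.22 with ACs (SE 0.58, -1.46 to 1.02, adjusted *p* = 0.841). Averaged over treatments it was 0.04 (SE 0.56, -1.16 to 1.25, adjusted *p* = 0.974), and the two-sided exact permutation test within treatments gave *p* = 0.907. These intervals include both no change and a change of more than 2-fold in either direction. Directions below are therefore those of libraries as labelled.

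The spread within groups was the main feature of Hdac3. Its highest library exceeded its lowest by 3.92 to 13.1-fold within a group and by 22.1-fold over all 18 libraries, from 51 to 1500 counts. The within-group SD of Hdac3 was 1.46 on the log2 scale, larger than that of 98.4% of the 13662 genes tested over all libraries, against a median of 0.59 over those genes. Among 1756 genes within 0.5 log2 units of its mean level, 99.7% had a smaller SD. For Ncor1, Tbl1x, Tbl1xr1 and Gps2 the SD was 0.83, 0.66, 0.63 and 0.48, and 76.9%, 59.7%, 54.9% and 27.8% of genes had a smaller one. On the scale of levels, the sorted Hdac3 values rose in steps of at most 1.66-fold. As deviations from the group mean they left a gap of 0.81 log2 units, between 1 library in each of the 6 groups (-2.29 to -0.92) and the other 12 (-0.11 to 1.38).

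**Figure D1:**
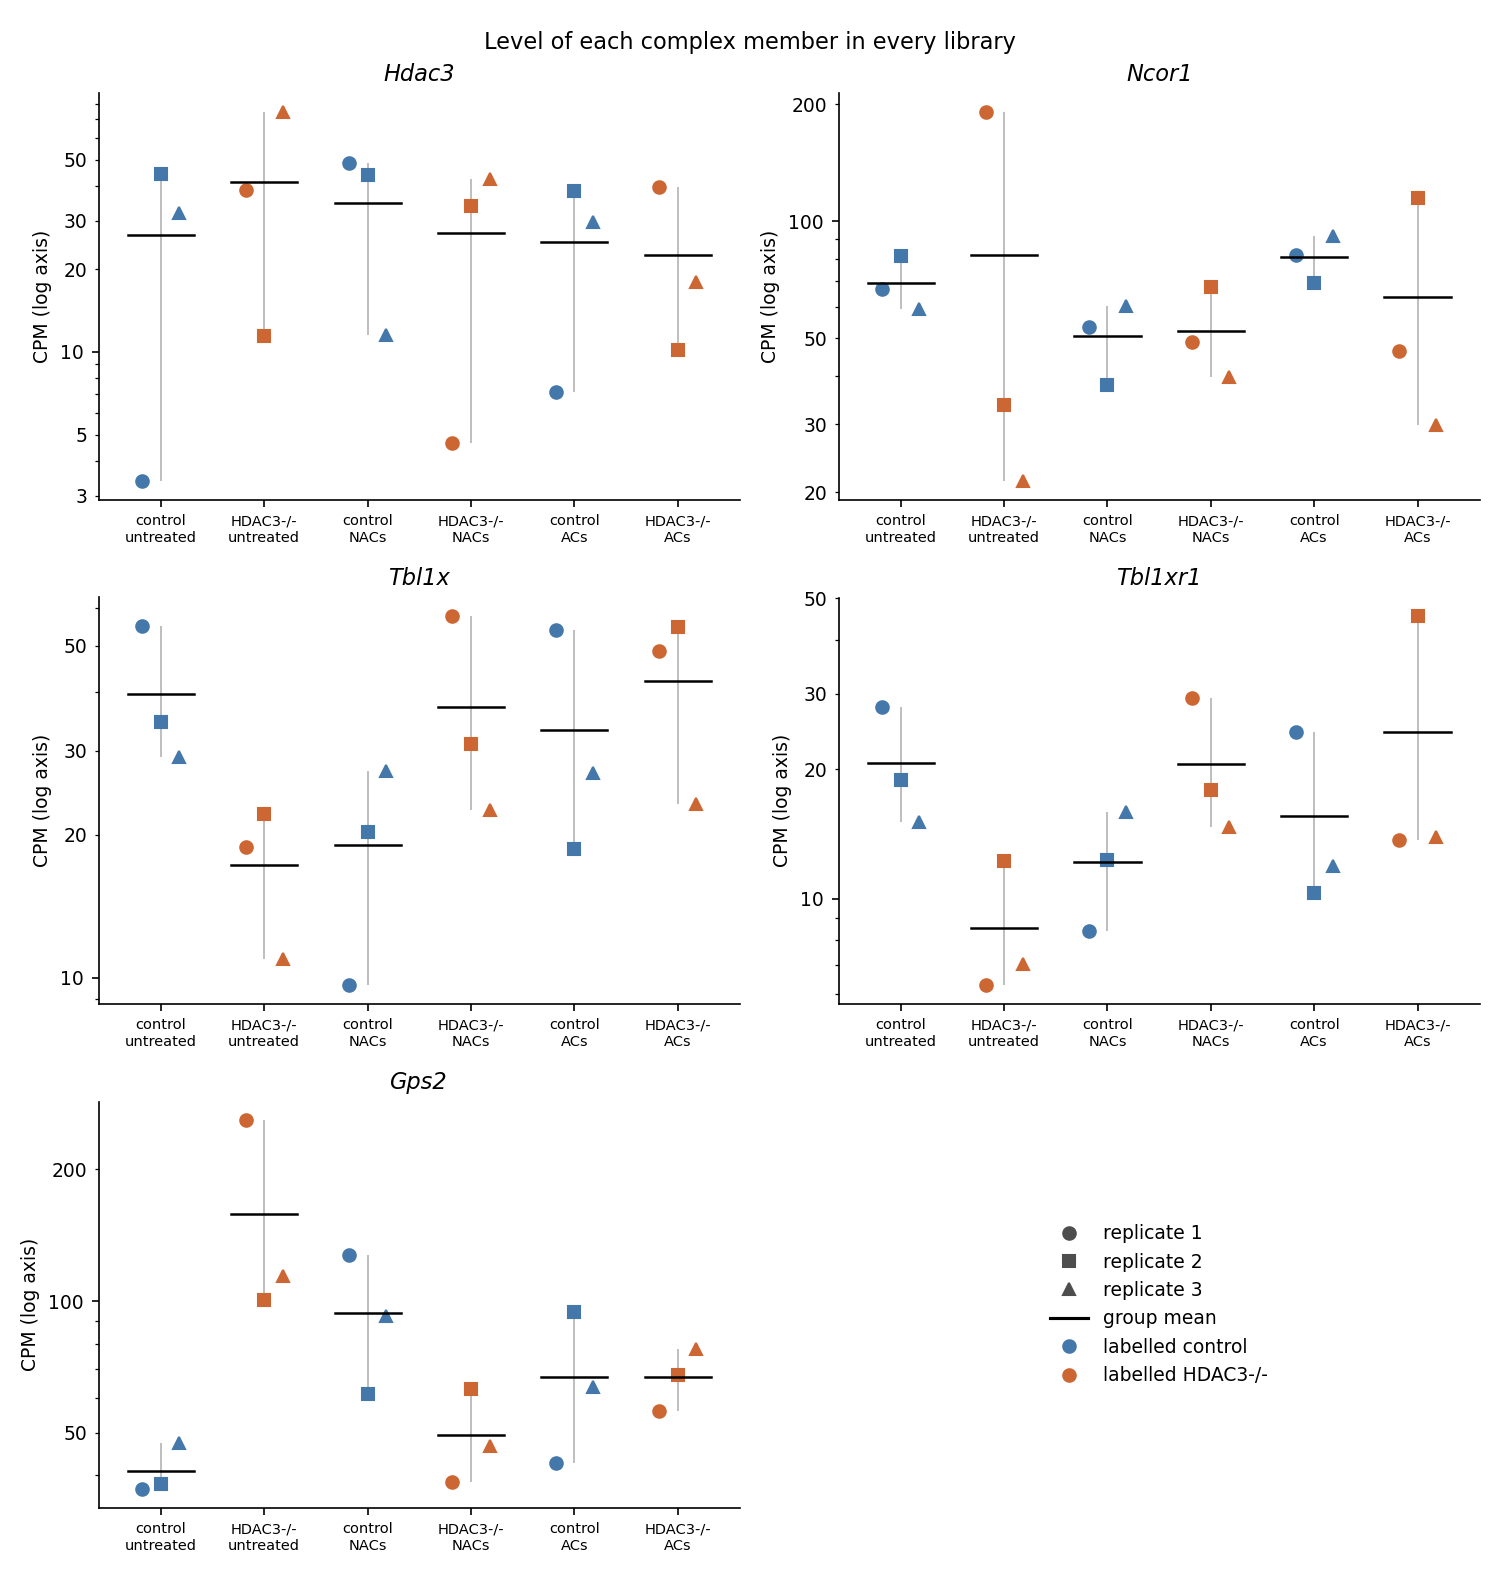
CPM on a log axis for each gene in the 18 libraries, with 1 marker shape per replicate number, color for the genotype label, a black bar for the group mean and a grey line from the lowest to the highest library. Hdac3 runs from 3.38 to 74.5 CPM with overlapping labels in each treatment, while Gps2 separates the untreated labels, at 37.2 to 47.5 CPM against 101 to 259 CPM.

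Ncor1 (ENSMUSG00000018501, chromosome 11, 62316426 to 62458541, reverse strand) encodes the scaffold. Its level in control libraries was 67.1, 81.4 and 59.4 CPM untreated, 53.5, 38.0 and 60.5 CPM with NACs, and 81.8, 69.2 and 91.8 CPM with ACs. In libraries labelled HDAC3-/- it was 191, 33.5 and 21.4 CPM untreated, 48.9, 67.7 and 39.7 CPM with NACs, and 46.3, 115 and 29.8 CPM with ACs. Control groups were tight, within 1.59-fold from lowest to highest, whereas the untreated and AC groups under the HDAC3-/- label spanned 8.95-fold and 3.85-fold. The log2 fold change was 0.10 untreated (SE 0.65, adjusted *p* = 0.920, edgeR), 0.06 with NACs (SE 0.33, adjusted *p* = 0.907) and -0.36 with ACs (SE 0.47, adjusted *p* = 0.663). The untreated value rested on 1 library: without HDAC3-/- untreated replicate 1, the smallest library, it was -1.51 with an edgeR adjusted *p* of 0.00137. That fit called 5887 genes in all, against 1404 with no library left out. Genes on the opposite strand overlap 0.648% of the Ncor1 exon length.

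Tbl1x (ENSMUSG00000025246, chromosome X, 77511013 to 77662983, forward strand) and Tbl1xr1 (ENSMUSG00000027630, chromosome 3, 22076652 to 22216594, forward strand) encode the paired WD40-repeat subunits. Since these genes moved together across libraries (below) and Gps2 went the other way between labels, the 250 bases before the RefSeq start of each are shown 5′ to 3′ from the RefSeq table on GRCm38.p6, which matched 4 of the 5 genes (all but Hdac3). Capitals mark matches on either strand to a GC box with the letters GGGCGG, to a box of the letters CCAAT, or to an ETS core with the letters CCGGAA, and no match overlaps another. All 3 windows are on the forward strand, at chrX:77510977-77511226 for Tbl1x, chr3:22076402-22076651 for Tbl1xr1 and chr11:69913770-69914019 for Gps2. The RefSeq start differs from the start of the counted gene for Tbl1x (77511013) and Gps2 (69913888). Part of these windows, marked matches included, therefore lies inside the counted gene, whereas the Tbl1xr1 window ends before it.
Tbl1x: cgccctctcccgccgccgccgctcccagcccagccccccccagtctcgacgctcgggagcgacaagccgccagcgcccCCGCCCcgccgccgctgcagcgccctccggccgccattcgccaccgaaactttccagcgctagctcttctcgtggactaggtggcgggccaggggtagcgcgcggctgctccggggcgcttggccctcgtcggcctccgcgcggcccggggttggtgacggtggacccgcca
Tbl1xr1: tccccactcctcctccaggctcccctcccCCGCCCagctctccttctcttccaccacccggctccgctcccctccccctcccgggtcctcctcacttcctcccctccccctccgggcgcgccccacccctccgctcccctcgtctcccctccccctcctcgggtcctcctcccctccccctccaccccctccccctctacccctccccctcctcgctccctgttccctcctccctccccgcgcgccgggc
Gps2: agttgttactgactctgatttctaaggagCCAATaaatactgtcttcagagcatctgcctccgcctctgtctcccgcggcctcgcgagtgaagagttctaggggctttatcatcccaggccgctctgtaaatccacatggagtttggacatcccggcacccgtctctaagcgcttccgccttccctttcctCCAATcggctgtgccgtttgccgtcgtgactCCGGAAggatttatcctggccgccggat
The Tbl1x and Tbl1xr1 windows each held 1 GC box, and neither held the letters of a CCAAT box or an ETS core. At least 1 GC box was in 32.7% of 32851 RefSeq windows of this length. The Gps2 window held 2 CCAAT boxes and 1 ETS core, and no GC box. At least 1 CCAAT box was in 33.8% of windows and at least 1 ETS core in 12.0%. The NRF1 motif (in 0.782% of windows) and the letters TATAAA (in 12.4%) were in none of the 3. GC content was 77.2% for Tbl1x, 76.0% for Tbl1xr1 and 55.2% for Gps2, against a median of 52.4% over all windows. The windows held 36, 15 and 17 CpG, against a median of 6. Of the Ncor1 windows, not printed here, 1 had 73.6% GC, 2 GC boxes and 1 ETS core. The other had 36.8% GC and none of these motifs. These matches describe the letters and are not binding sites.

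Tbl1x was at 55.0, 34.5 and 29.2 CPM in untreated control libraries and at 18.9, 22.1 and 10.9 CPM in untreated libraries labelled HDAC3-/-. With NACs the control values were 9.63, 20.3 and 27.2 CPM and those under the HDAC3-/- label 57.7, 31.0 and 22.5 CPM. With ACs they were 53.8, 18.7 and 26.9 CPM and 48.6, 54.7 and 23.2 CPM. The untreated labels did not overlap, with HDAC3-/- libraries lower, and the other treatments overlapped. The log2 fold change of Tbl1x was -1.28 untreated (SE 0.46, edgeR adjusted *p* = 0.0737), 0.99 with NACs (SE 0.40, adjusted *p* = 0.157) and 0.32 with ACs (SE 0.47, adjusted *p* = 0.704), none past the threshold. Without HDAC3-/- untreated replicate 1 the untreated difference passed (-1.43, edgeR adjusted *p* = 0.00287), as it did with library totals alone (-1.79, adjusted *p* = 0.0179). The fit without that library called 5887 genes in all, against 1404 with no library left out.

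Tbl1xr1 was at 28.0, 18.9 and 15.1 CPM in untreated control libraries and at 6.28, 12.3 and 7.06 CPM in untreated libraries labelled HDAC3-/-. With NACs the values were 8.40, 12.3 and 15.9 CPM in control libraries and 29.3, 17.9 and 14.6 CPM under the HDAC3-/- label. With ACs they were 24.4, 10.3 and 11.9 CPM and 13.7, 45.5 and 13.9 CPM. As for Tbl1x, the untreated labels alone did not overlap. The log2 fold change of Tbl1xr1 was -1.34 untreated (SE 0.47, edgeR adjusted *p* = 0.0676), 0.79 with NACs (SE 0.37, adjusted *p* = 0.193) and 0.64 with ACs (SE 0.53, adjusted *p* = 0.474). The untreated difference likewise passed without HDAC3-/- untreated replicate 1 (-1.27, edgeR adjusted *p* = 0.0102) and with library totals alone (-1.88, adjusted *p* = 0.0165), and in DESeq2's Wald test (-1.23, adjusted *p* = 0.0465). Those 3 settings called 5887, 2406 and 3278 genes in all, against 1404.

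Gps2 (ENSMUSG00000023170) was at 37.2, 38.2 and 47.5 CPM in untreated control libraries and at 259, 101 and 114 CPM in untreated libraries labelled HDAC3-/-. With NACs it was at 128, 61.4 and 92.5 CPM in control libraries and at 38.5, 62.9 and 46.8 CPM under the HDAC3-/- label. With ACs the values were 42.7, 94.2 and 63.8 CPM and 56.1, 67.6 and 77.6 CPM. The untreated HDAC3-/- libraries were all above the untreated control libraries, and the labels overlapped with NACs and ACs. Gps2 was the 1 gene of the 5 that passed the test between labels: its untreated log2 fold change was 1.83 (SE 0.44, 95% interval 0.88 to 2.79, edgeR adjusted *p* = 0.0298). It was -0.90 with NACs (SE 0.34, adjusted *p* = 0.137) and -0.06 with ACs (SE 0.41, adjusted *p* = 0.948). The untreated value ranged from 1.23 to 2.08 as single libraries were left out, and it did not pass without control replicate 1, 2 or 3 (edgeR adjusted *p* = 0.122, 0.145 and 0.0872) or without HDAC3-/- replicate 3 (0.0602). It did not pass with library totals alone either (1.39, edgeR adjusted *p* = 0.0512). With NACs it passed without control replicate 2 (-1.03, edgeR adjusted *p* = 0.0205).

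The share of all genes called gives the scale for these counts. Untreated, 1 of 5 members and 11.6% of 12101 genes tested were called between labels. With NACs it was 0 of 5 and 0.864% of genes, with ACs 0 of 5 and 3.75%, and averaged over treatments 0 of 5 and 1.44%, where Gps2 had the largest log2 fold change (0.34, SE 0.23, edgeR adjusted *p* = 0.402). The untreated labels did not overlap in log2 CPM for 3 of 5 members and for 38.1% of genes; with NACs and ACs none of the 5 was without overlap, against 25.9% and 27.1% of genes. The exact permutation test for 3 libraries against 3 cannot go below *p* = 0.1, the value it gave for Tbl1x, Tbl1xr1 and Gps2 untreated.

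The difference between labels itself differed between treatments for 3 of the 5 members. The edgeR interaction of label and treatment over all 18 libraries had an adjusted *p* of 0.0433 for Tbl1x, 0.0410 for Tbl1xr1 and 0.0102 for Gps2, and of 0.807 for Hdac3 and 0.829 for Ncor1. In the same test 27.7% of 13662 genes were called. The Gps2 interaction passed with each library left out in turn (edgeR adjusted *p* from 0.00332 to 0.0336), while those of Tbl1x and Tbl1xr1 reached 0.130 and 0.125 without control untreated replicate 1. The direction of the 3 genes followed that of the GC slope between labels: Gps2, with the most GC-rich transcripts (55.8%), was higher untreated and lower with NACs under the HDAC3-/- label, and Tbl1xr1 and Tbl1x, with 42.7% and 45.7% GC, were the reverse. With a GC and length offset fitted in each library, the untreated log2 fold change was 1.17 for Gps2 (edgeR adjusted *p* = 0.247), -0.33 for Tbl1x and -0.0020 for Tbl1xr1. The interaction then had an adjusted *p* of 0.0856 for Gps2, 0.441 for Tbl1x and 0.369 for Tbl1xr1. Neither the Gps2 call between untreated labels nor the 3 interaction calls held with the offset, under which 0 genes of all those tested were called untreated, against 1404 without it, and 1061 in the interaction, against 3784. GC dependence and genotype label cannot be told apart in the untreated and NAC libraries. Bulk counts cannot separate RNA per cell from the share of cells that carry it.

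**Figure D2:**
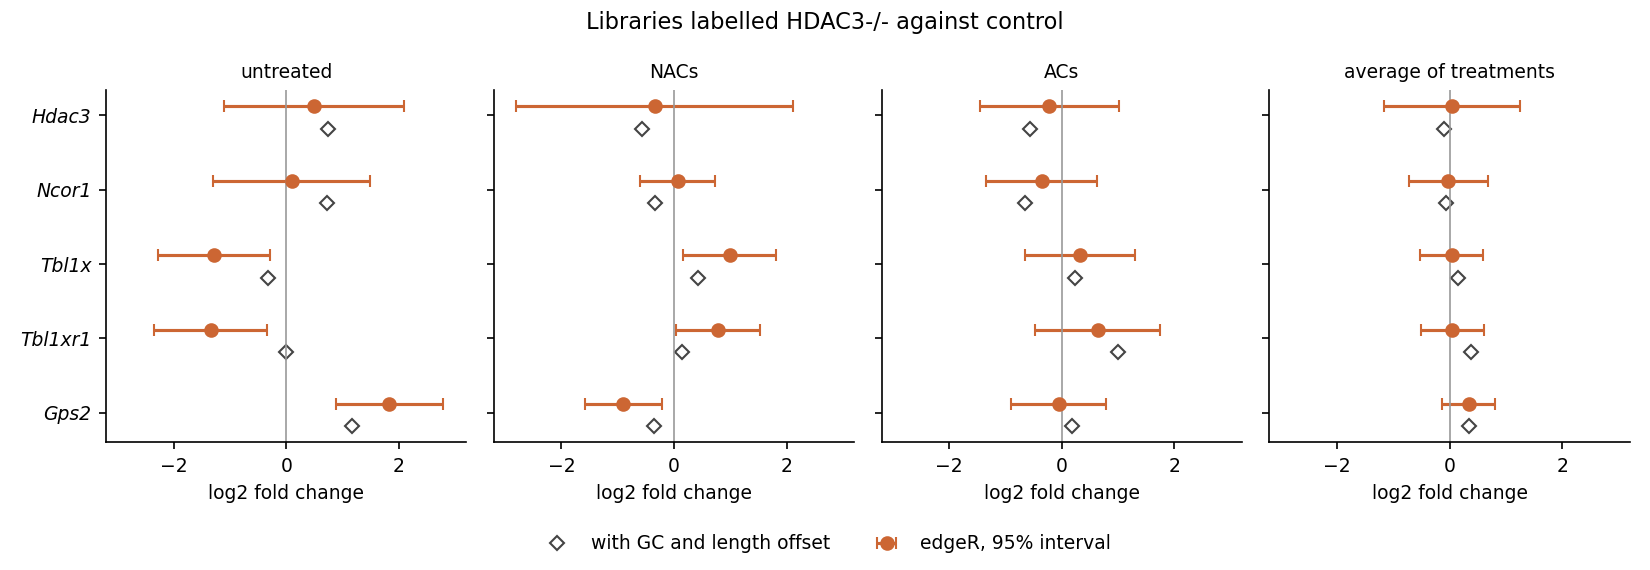
Log2 fold change of libraries labelled HDAC3-/- over control libraries for each gene, in 4 panels for untreated, NACs, ACs and their average. Filled points are edgeR estimates with 95% intervals and open diamonds the estimates with the GC and length offset; only Gps2 untreated passed the adjusted threshold, at 1.83, and its diamond lies at 1.17.

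Coculture did not change any of the 5 genes past the threshold. Averaged over labels, ACs against NACs gave log2 fold changes from -0.36 for Hdac3 (SE 0.69) to 0.49 for Tbl1x (SE 0.33), ACs against untreated from -0.48 for Hdac3 (SE 0.69) to 0.54 for Tbl1xr1 (SE 0.33), and NACs against untreated from -0.55 for Ncor1 (SE 0.41) to 0.25 for Tbl1xr1 (SE 0.33). No gene of the 13662 tested passed in these 3 comparisons by edgeR (0% called in each), where 1246, 697 and 136 genes had an unadjusted *p* under 0.05, while DESeq2 called 10, 1 and 0 genes and limma-voom 0 in each. The lowest exact permutation *p* of a member, stratified by label, was 0.255 for Ncor1 with ACs against NACs.

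Within groups, Tbl1x and Tbl1xr1 were high where Hdac3 was low. In each of the 6 groups, the library with the least Hdac3 had the most Tbl1x and also the most Tbl1xr1, a pattern that 0.315% of the 13661 other genes tested shared. Among untreated control libraries, for example, the library at 3.38 CPM of Hdac3 held 55.0 CPM of Tbl1x and 28.0 CPM of Tbl1xr1, against at most 34.5 and 18.9 CPM in its 2 replicates. Among libraries labelled HDAC3-/- with ACs, the one at 10.1 CPM of Hdac3 held 54.7 and 45.5 CPM. Ncor1 was highest in the library with the least Hdac3 in 2 groups, and Gps2 in 0, where it was the lowest in 4.

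Over the 18 deviations from group means of log2 CPM, Pearson's *r* between Hdac3 and Tbl1x was -0.75 (two-sided exact permutation within groups, *p* = 0.00328, adjusted over 4 relations 0.00656), with Spearman's rho -0.66 (*p* = 0.00619, adjusted 0.0192, exact). Between Hdac3 and Tbl1xr1, *r* was -0.80 (exact permutation *p* = 0.000707, adjusted 0.00283) and rho -0.61 (*p* = 0.00962, adjusted 0.0192). Tbl1x lay on the other side of its group mean from Hdac3 in 14 of 18 libraries and Tbl1xr1 in 16. Hdac3 and Gps2 gave *r* = 0.35 (rho 0.19, exact permutation adjusted *p* = 0.269 and 0.542), and Hdac3 and Ncor1 gave *r* = -0.11 (rho -0.18, adjusted *p* = 0.729 and 0.542). Without the 2 libraries farthest on Hdac3, control untreated replicate 1 and HDAC3-/- NAC replicate 1, *r* was -0.68 for Tbl1x, -0.80 for Tbl1xr1, 0.28 for Gps2 and -0.19 for Ncor1. The exact permutation *p* values were then 0.0465, 0.00637, 0.482 and 0.684. They were not adjusted over the 4 relations, and the one for Tbl1x lies just under 0.05 before any adjustment.

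Except with ACs under the HDAC3-/- label, the 1 library in each group lowest in Hdac3 gave most of its log2 range. Over the other 12 libraries, 2 a group, *r* between Hdac3 and Tbl1x was 0.03 and between Hdac3 and Tbl1xr1 0.03 (exact permutation *p* = 1.00 for both), a check chosen after the data were seen. These pairs were picked by their Hdac3 value and differ in it by as little as 0.15 log2 units, so they do not show whether a slope is absent among them. Over all libraries the relation was present under both labels, with *r* of -0.81 and -0.69 for Tbl1x and of -0.86 and -0.77 for Tbl1xr1 in the 9 control libraries and the 9 libraries labelled HDAC3-/-. With the GC and length offset, *r* was -0.91 for Tbl1x (exact permutation adjusted *p* = 0.00223) and -0.78 for Tbl1xr1 (adjusted *p* = 0.00274). Spearman's rho was then -0.87 for Tbl1x (exact permutation adjusted *p* = 0.000943) and -0.56 for Tbl1xr1, which no longer passed (adjusted *p* = 0.0727). With library totals alone, *r* was -0.48 and -0.55, and neither passed (adjusted *p* = 0.0837 for both, exact permutation).

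**Figure D3:**
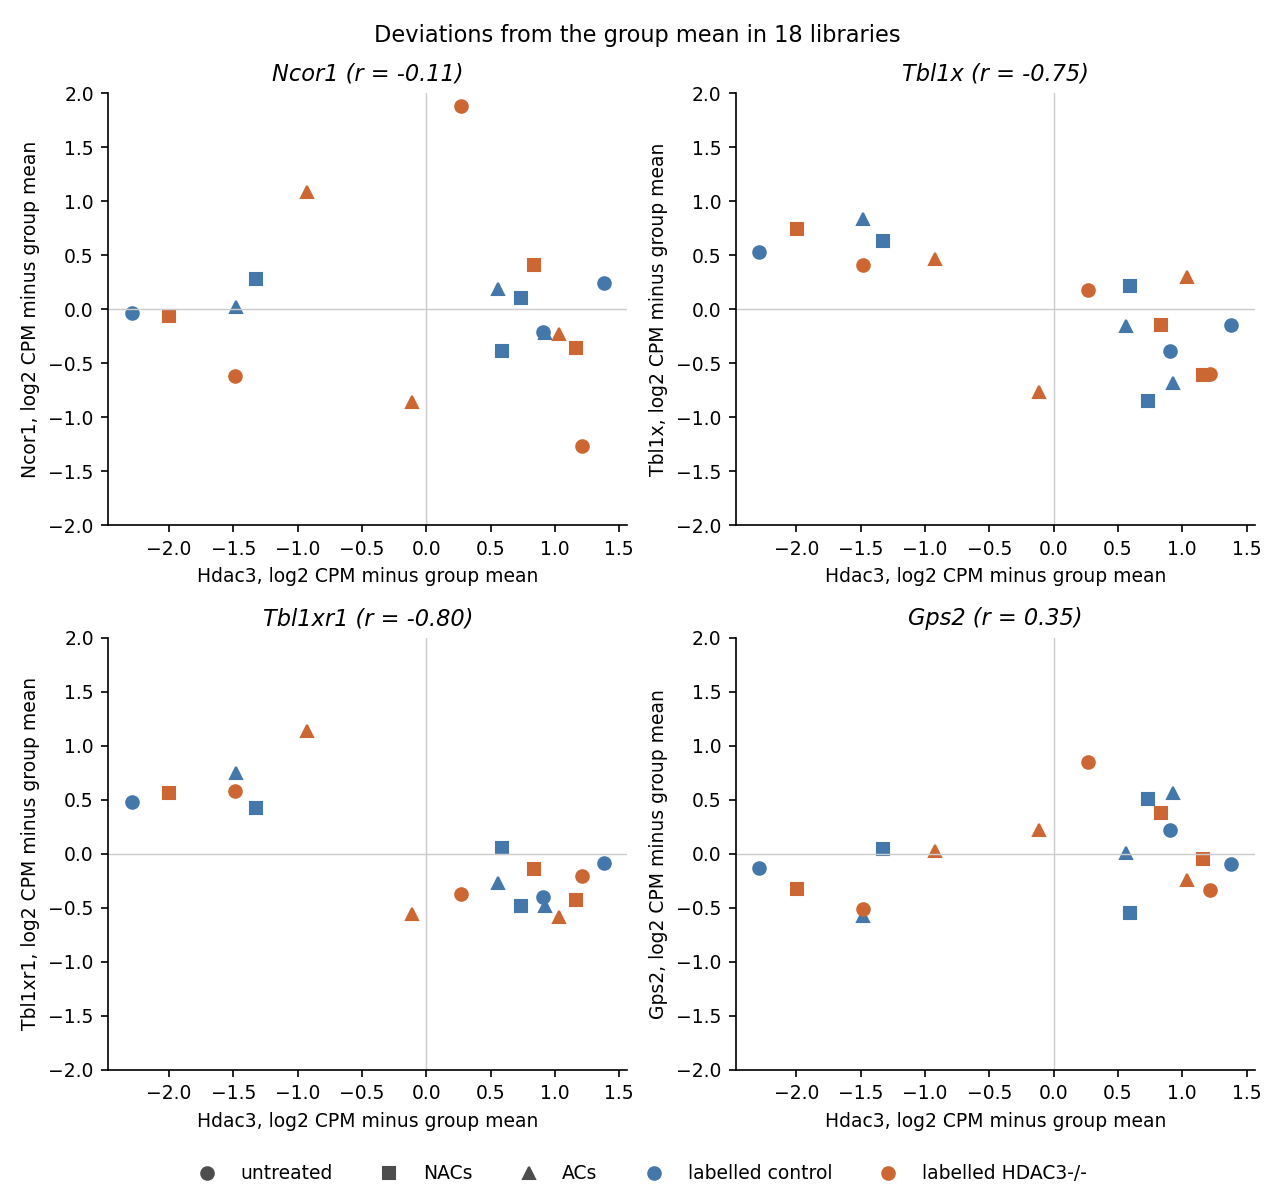
Deviation from the group mean of log2 CPM for Hdac3 on the horizontal axis and for each partner on the vertical axis, with 1 point per library, shape for treatment and color for label. In the Tbl1x and Tbl1xr1 panels the 6 libraries at or below -0.92 on the Hdac3 axis lie above 0, and the other 12 lie to the right of them on both sides of 0.

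Among the partners, Tbl1x and Tbl1xr1 varied together, with *r* = 0.79 (exact permutation *p* = 0.00174, adjusted over the 6 pairs without Hdac3 0.0104) and rho 0.79 (adjusted 0.00553). Without the 2 libraries farthest on Tbl1x, *r* was 0.71 (exact permutation *p* = 0.0284, not adjusted over the 6 pairs). The other 5 pairs did not pass, the nearest being Tbl1xr1 with Gps2 at *r* = -0.51 (exact permutation *p* = 0.0465, adjusted 0.140). With the GC and length offset, Tbl1x and Tbl1xr1 had *r* = 0.69 (exact permutation adjusted *p* = 0.0307) and rho 0.49, which did not pass (adjusted *p* = 0.184). With the same offset, Ncor1 and Gps2 reached *r* = 0.86 (exact permutation adjusted *p* = 0.0307), against 0.53 without it (adjusted *p* = 0.231). Without HDAC3-/- untreated replicates 1 and 3, the farthest on Ncor1, that 0.53 was 0.08, and with the offset *r* was 0.61 without its 2 farthest libraries.

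Other measures of the libraries moved with these genes within groups. The summed fibroblast markers had *r* = 0.78 with Hdac3, -0.52 with Tbl1x and -0.60 with Tbl1xr1 over 18 libraries, and all 4 markers had a positive *r* with Hdac3. Their sum was 4.31 to 89.4 CPM in untreated control libraries, 27.1 to 46.7 CPM with NACs and 7.02 to 188 CPM with ACs, and 66.8 to 102, 7.12 to 41.9 and 74.6 to 219 CPM under the HDAC3-/- label. The summed granulocyte markers had *r* = 0.61 with Hdac3, with all 8 positive, and ranged from 221 to 1261 CPM across libraries. The GC slope had *r* = 0.37 with Hdac3 but -0.73 with Tbl1x and -0.62 with Tbl1xr1, and the log2 total had -0.11, -0.05 and 0.17. With the GC and length offset, Pearson's *r* between Hdac3 and both genes still passed, as given above. For Ncor1 and Gps2, *r* with the GC slope was -0.59 and 0.31. Their *r* was -0.73 and -0.55 with the log2 total, and -0.73 and -0.59 with the summed macrophage markers. The part of depth and of the marker sums in these relations was not tested.

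Among all genes, Tbl1xr1 and Tbl1x stood near the lower end of the relation to Hdac3. Only 0.264% of 13661 genes had a lower *r* with Hdac3 than Tbl1xr1 and 0.520% a lower one than Tbl1x, whereas 32.7% lay below Ncor1 and 82.9% below Gps2. The median *r* over all genes was 0.04. Across 13633 genes, GC content and *r* with Hdac3 had a correlation of 0.36, and Tbl1xr1 and Tbl1x are the 2 members lowest in GC content. The 8 genes most like Hdac3 by this measure were H2-Q7 (0.92), Ust (0.91), H2-Q5 (0.90), Slc9b2 (0.89), Cd5l (0.88), H2-Ab1 (0.87), Nxpe1-ps (0.87) and Trpv4 (0.87). H2-Ab1 encodes a chain of MHC class II, and H2-Q7 and H2-Q5 belong to the MHC class I gene family, whose counts are uncertain where reads could come from more than 1 member. The 4 genes with the lowest *r* were the chemokines Ccl2 (-0.91) and Ccl6 (-0.90), the growth factor Bmp2 (-0.91) and Gm13431 (-0.90). Cd5l, a secreted macrophage protein, ranged from 14.4 to 478 CPM over the 18 libraries and Ccl2 from 2.73 to 81.9 CPM. These values describe the libraries, and genes are not independent replicates.

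**Figure D4:**
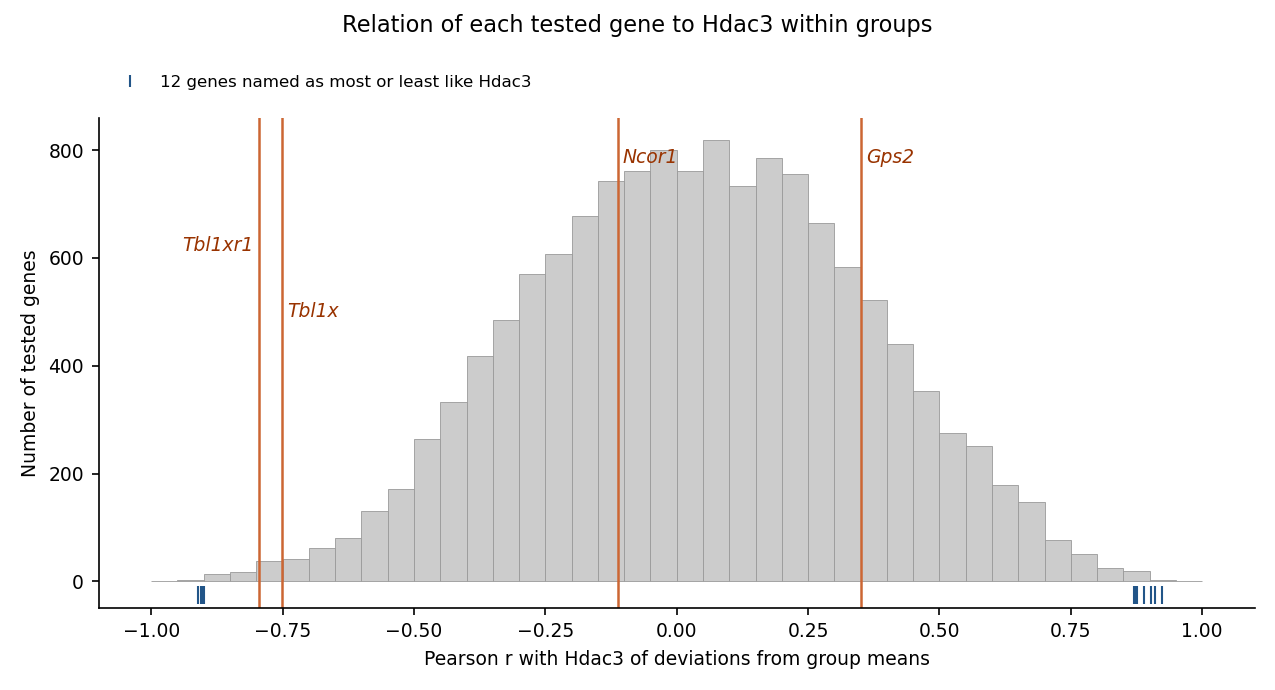
Histogram of Pearson's r with Hdac3 over 13661 tested genes, each r taken over 18 deviations from group means of log2 CPM. Lines mark the 4 partners, with Tbl1xr1 at -0.80 and Tbl1x at -0.75 in the lower tail, and ticks under the bars mark the 12 named genes at either end.

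A list of 14 partners that dock on or work through the complex includes the class IIa deacetylases Hdac4, Hdac5, Hdac7 and Hdac9, and DNA-binding repressors. Of its genes 13 were tested untreated and 1 fell, where 11.6% of all genes were called, with a median log2 fold change of 0.41 against 0.06 over all genes tested. It was Zbtb33, which encodes the methyl-CpG-binding repressor Kaiso, at 10.6, 8.83 and 10.8 CPM in untreated control libraries and 0.754, 2.14 and 1.29 CPM under the HDAC3-/- label (log2 fold change -2.82, SE 0.52, edgeR adjusted *p* = 0.0183). The groups did not overlap. With the GC and length offset 0 genes of all those tested were called untreated, so this call is lost, at -1.32 (SE 0.48). Without control replicate 2 or 3 or HDAC3-/- replicate 3, 0 genes were called, and Zbtb33 was at -2.88, -2.83 and -2.63. Zbtb33 also fell in the average over treatments (-1.07, SE 0.27, adjusted *p* = 0.0440, edgeR), where the other 13 did not pass. With counts summed over libraries of the same label and number, this average was -0.68 (SE 0.28, edgeR adjusted *p* = 0.115). With DESeq2's size factors it was -1.05 (edgeR adjusted *p* = 0.0516), and Zbtb33 passed in neither. Its sign was not the same in each treatment, with a log2 fold change of 0.98 with NACs (SE 0.43, edgeR adjusted *p* = 0.169; 4.39 ± 2.24 CPM in control libraries and 8.57 ± 2.13 CPM under the HDAC3-/- label, SD, n = 3) and of -1.47 with ACs (SE 0.52, adjusted *p* = 0.101). With NACs and with ACs 0 of the 14 and of the 13 tested passed, against 0.864% and 3.75% of all genes. The interaction called 5 of 14, namely Zbtb33, Bcl6, Rbpj, Siah2 and Hdac5, where it called 27.7% of all genes. Within groups their *r* with Hdac3 ran from -0.73 for Rbpj, the DNA-binding effector of Notch signalling, to 0.32 for Coro2a, a component of the complex, with a median of 0.13.

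The 17 genes of the other class I deacetylase complexes (CoREST, Sin3 and NuRD, with Hdac1, Hdac2 and Hdac8) were all tested, and 1 rose untreated, the NuRD subunit gene Mbd3 (log2 fold change 1.44, SE 0.41, edgeR adjusted *p* = 0.0426), a call lost with the GC and length offset. Mbd3 also lost it with library totals alone (edgeR adjusted *p* = 0.0926), without a filter (0.0615) and with the replicate block (0.0519). The call held with DESeq2's size factors, its Wald test, limma-voom and 1 fit of all libraries. Medians of the 17 genes were 0.10 untreated, 0.16 with NACs and 0.36 with ACs, against 0.06, -0.0031 and -0.0062 over all genes tested. None passed with NACs, with ACs or in the average, and the interaction called 6 of 17, namely Mbd3, Gatad2a, Sin3b, Rcor1, Sin3a and Mta1. Over all genes the shares called were 11.6% untreated, 0.864% with NACs, 3.75% with ACs, 1.44% in the average and 27.7% in the interaction. Their *r* with Hdac3 within groups ran from -0.18 to 0.76, with Gatad2a the highest and a median of 0.13.

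Of 9 genes known to be repressed through HDAC3 or its complex, 8 were tested in each comparison. Untreated, 2 rose, the lipogenic regulator gene Srebf1 (log2 fold change 1.38, SE 0.39, edgeR adjusted *p* = 0.0408) and the metalloprotease gene Mmp9 (2.40, SE 0.72, adjusted *p* = 0.0482; 49.1, 21.1 and 58.3 CPM in control libraries against 88.5, 511 and 74.0), with a median of -0.11 over the 8 genes. Without HDAC3-/- untreated replicate 2, the library at 511 CPM, the Mmp9 value was 0.83 (SE 0.52). Both untreated calls are lost with the GC and length offset, where Srebf1 was at 0.43 (SE 0.31) and Mmp9 at 1.66 (SE 0.69). They are also lost with library totals alone (edgeR adjusted *p* = 0.126 for Srebf1 and 0.0712 for Mmp9) and with the replicate block (edgeR adjusted *p* = 0.0704 and 0.157). With NACs 1 rose, the cholesterol exporter gene Abca1 (1.52, SE 0.37, edgeR adjusted *p* = 0.0466), which stood at -1.32 untreated (SE 0.44, adjusted *p* = 0.0590). With ACs 1 rose, the related exporter gene Abcg1, from 64.3, 60.3 and 72.5 CPM in control libraries to 238, 190 and 216 CPM under the HDAC3-/- label (1.65, SE 0.38, edgeR adjusted *p* = 0.0303). Abcg1 was also the 1 gene of the 8 that rose in the average over treatments (0.89, SE 0.20, adjusted *p* = 0.0394, edgeR). The interaction called 3 of the 8, Abca1, Srebf1 and Nfil3. The shares of all genes called were 11.6% untreated, 0.864% with NACs, 3.75% with ACs, 1.44% in the average and 27.7% in the interaction. Within groups, 2 of the 8 had a positive *r* with Hdac3 and the median was -0.33, with Mmp9 at -0.68 and Abca1 at -0.61 the lowest. Under the offset, 1 gene of all those tested was called with NACs, against 103 without it, and Abca1 was not called (1.06, SE 0.30, edgeR adjusted *p* = 0.166). Abca1 with NACs also did not pass in 1 fit of all libraries (edgeR adjusted *p* = 0.240) or with library totals alone (0.0642). Limma-voom gave an adjusted *p* of 0.0655. It passed with DESeq2's size factors, its Wald test, no filter and the replicate block. Abcg1 kept its calls with the offset, with ACs (1.36, SE 0.28, edgeR adjusted *p* = 0.0164) and in the average (0.64, SE 0.15, edgeR adjusted *p* = 0.0419), whereas Zbtb33 in the average did not (-0.51, SE 0.25, edgeR adjusted *p* = 0.243). The Abcg1 average did not pass with block and offset together (0.64, edgeR adjusted *p* = 0.0562) or with library totals alone (0.77, edgeR adjusted *p* = 0.0519). It passed with counts summed over libraries of the same label and number (1.18, edgeR adjusted *p* = 0.00398). Of the 14 interaction calls over the 3 lists, Bcl6, Gatad2a and Abca1 kept theirs with the offset. With block and offset together, Bcl6 kept its call (edgeR adjusted *p* = 0.0499), and Gatad2a (0.0866) and Abca1 (0.0881) lost theirs. With library totals alone, Zbtb33, Bcl6, Rbpj, Rcor1, Sin3a and Abca1 kept theirs. Zbtb33, Bcl6 and Abca1 passed with each library left out in turn, and the others did not. Each of the 8 calls made untreated, with NACs, with ACs or in the average was lost without at least 1 library: Abca1 with NACs without control replicates 1 or 3 or HDAC3-/- replicates 1 or 2 (highest edgeR adjusted *p* = 0.267), and Abcg1 with ACs without control replicates 2 or 3 or HDAC3-/- replicate 1 (highest edgeR adjusted *p* = 0.314). Mbd3, Srebf1 and Mmp9 untreated were lost without any of control replicates 1 to 3 and without HDAC3-/- replicates 2 or 3, and Mmp9 also without HDAC3-/- replicate 1. In the average, the highest edgeR adjusted *p* with 1 library left out was 0.123 for Zbtb33 and 0.114 for Abcg1.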

How the data were processed

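RNA of 18 BMDM libraries was sequenced as read pairs after a NEBNext Ultra II kit. The deposited values are whole counts per gene, which the authors made without normalization; their processing notes name Trimmomatic 0.36, STAR 2.5.2b, featureCounts of Subread 1.5.2 and GRCm38, and the strand setting is not given in the sources used here. Reads were aligned to mouse alone, and the authors compared groups with DESeq2. Here each genotype comparison was fitted on its 6 libraries, and the averages and the interaction on all 18, with edgeR 4.0.16 (filterByExpr, minimum count 10, minimum total count 15, TMM, robust glmQLFit and glmQLFTest, Benjamini-Hochberg threshold 0.05 over all genes tested) in R 4.3.3. Log2 CPM used a prior count of 2. Relations used deviations from group means and exact permutation within groups (46656 orders), adjusted over 4 relations with Hdac3 or, added later, over the 6 other pairs. The 5 members were named in full, with list genes at an adjusted *p* under 0.05 (at most 6 a list and comparison) and the 8 genes highest and 4 lowest in *r* with Hdac3. Members and lists were chosen with earlier results of these data known. Alternatives were the size factors of DESeq2 1.42.0 and its Wald test, limma-voom (limma 3.58.1), library totals alone, no filter, a prior count of 0.5, all libraries in 1 fit, counts summed over libraries of the same label and number, a block for the replicate number, a per-library smooth of GC content and length as offset (mgcv 1.9.3), and each library left out in turn. The functions were tested on simulated data. GC content and lengths were taken from GENCODE M21, and 44737 genes have its start and end. Intervals cover the spread between libraries. Some items are not reported here.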

Additional observations from a re-analysis of the deposited data

Results flagged for a closer look

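The difference between genotype labels differed between treatments, by the edgeR interaction over 18 libraries, for Tbl1x (adjusted *p* = 0.0433), Tbl1xr1 (adjusted *p* = 0.0410) and Gps2 (adjusted *p* = 0.0102). Gps2 was higher in all 3 untreated libraries labelled HDAC3-/- than in the 3 control libraries, and its log2 fold change with NACs had the other sign (-0.90). Tbl1x and Tbl1xr1 went the other way in both treatments. With the GC and length offset the 3 values were 0.441, 0.369 and 0.0856.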

How the results depend on the processing

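Of 870 alternative values of the 5 genes in the comparisons (relations not counted), 731 kept the side of the threshold and, where they have one, the direction, 104 changed sign, 29 lost and 6 gained significance, and of those that changed sign 1 passed the test (Ncor1 untreated without HDAC3-/- untreated replicate 1). Interaction values have no direction, so they were judged by the threshold alone and could not change sign. The causes were not tested. Values are log2 fold changes of the HDAC3-/- label over control, or of the first treatment over the second. With library totals alone, Hdac3 was -0.040 untreated, 0.050 with NACs and -0.065 on average, Ncor1 -0.34 untreated and 0.026 for ACs against untreated, Tbl1x -0.069 and Tbl1xr1 -0.060 on average, and Gps2 0.058 for ACs against NACs; 2 members were called untreated (Tbl1x and Tbl1xr1, while Gps2 did not pass) among 2406 genes against 1404, and *r* with Hdac3 was 0.049 for Ncor1, -0.48 for Tbl1x and -0.55 for Tbl1xr1. Without a filter, Ncor1 was -0.0056 untreated and 0.014 for ACs against untreated, Gps2 0.064 with ACs and 0.042 for ACs against NACs, and Tbl1x -0.011 for NACs against untreated. For that last difference DESeq2's size factors gave -0.0048, its Wald test -0.0058 and limma-voom -0.012. The Wald test called 2 members untreated (Gps2 and Tbl1xr1) among 3278 genes. Limma-voom gave Ncor1 -0.57 untreated and 0.19 for ACs against untreated, and Gps2 0.0070 with ACs, for which 1 fit of all libraries gave 0.0029.

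With the GC and length offset, 0 members were called untreated among 0 genes in all and 0 in the interaction among 1061; Ncor1 was -0.35 with NACs and Gps2 0.18 with ACs, Hdac3 -0.11 on average, Gps2 0.094 for ACs against NACs and Tbl1x -0.00097 for NACs against untreated. Whether the replicate numbers pair the libraries was not settled. Deviations of same-numbered libraries had *r* from -0.33 to 0.46 within a label and from -0.33 to 0.10 within a treatment. In 0 of 6 and 0 of 3 pairs of groups were all over 0.1, a threshold that cannot exclude shared animals. All 3 were above 0 for untreated and NAC controls (0.054 to 0.085) and for untreated and AC controls (0.064 to 0.46). The same held for NACs and ACs under the HDAC3-/- label (0.085 to 0.11), and the other same-label pairs reached below 0. Among pairs of groups that differ in label and treatment, 1 had all 3 over 0.1, control with ACs and the HDAC3-/- label with NACs (0.18 to 0.49). With the replicate block, Ncor1 was -0.57 untreated and 0.062 for ACs against untreated, Gps2 0.014 with ACs, Tbl1x -0.016 on average and Hdac3 0.31 for NACs against untreated, and 1336 genes were called untreated against 1404. With both block and offset, 0 members were called untreated among 0 genes in all and 0 in the interaction among 266, with Ncor1 at -0.11 untreated and -0.35 with NACs, Gps2 at 0.19 with ACs and 0.080 for ACs against NACs, and Hdac3 at -0.045 on average and 0.31 for NACs against untreated. Over the 2 libraries higher in Hdac3 of each group, a choice made after the data were seen, *r* with Hdac3 was 0.034 for Tbl1x, 0.026 for Tbl1xr1 and -0.53 for Gps2.

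As each library was left out in turn, the values ran as follows. Between untreated labels, Hdac3 ran from -0.22 to 1.17, Gps2 from 1.23 to 2.08, the number of members called from 0 to 4 (among 0 to 5887 genes in all, with 4 in the fit that called 5887), Ncor1 from -1.51 to 0.54, Tbl1x from -1.55 to -0.998 and Tbl1xr1 from -1.76 to -1.14. Between labels with NACs, Hdac3 ran from -0.86 to 0.17, Ncor1 from -0.11 to 0.27, Gps2 from -1.06 to -0.57 and the number of members called from 0 to 1. Between labels with ACs, Hdac3 ran from -0.84 to 0.28, Gps2 from -0.28 to 0.32, Tbl1xr1 from -0.19 to 1.14 and Ncor1 from -1.11 to 0.0088. Between labels on average, Hdac3 ran from -0.21 to 0.27, Ncor1 from -0.56 to 0.13, Tbl1x from -0.12 to 0.22 and Tbl1xr1 from -0.22 to 0.22. In the interaction, the number of members called ran from 1 to 3. For ACs against NACs, Gps2 ran from -0.15 to 0.15 and Tbl1xr1 from -0.12 to 0.47. For ACs against untreated, Ncor1 ran from -0.43 to 0.77 and Gps2 from -0.41 to 0.061. For NACs against untreated, Hdac3 ran from -0.41 to 0.26, Tbl1x from -0.21 to 0.19, Ncor1 from -0.77 to 0.20 and Gps2 from -0.37 to 0.027. The *r* of Hdac3 with Ncor1 ran from -0.28 to 0.057.

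Over the alternatives other than left-out libraries, the number of genes called between labels ran from 0 to 3306 untreated, 0 to 575 with NACs, 373 to 1373 with ACs and 71 to 1336 on average, from 266 to 4024 in the interaction, and from 0 to 90 and 0 to 16 for ACs against NACs and against untreated; with left-out libraries these ran from 0 to 5887, 0 to 3121, 0 to 1693, 1 to 2295, 1305 to 4599, 0 to 2 and 0 to 0. The lowest Hdac3 library held 51 counts and the lowest Tbl1xr1 library 25. With 3 libraries a group, intervals for Hdac3 spanned more than 2-fold either way.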
